A study of Mus musculus with 16 samples.

Results

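De novo lipogenesis is the synthesis of fatty acids from carbohydrate, and the 10 genes described here encode its enzymes, its main transcription factors and a pair of proteins closely tied to it: Acly, Acaca, Acacb, Fasn, Scd1, Elovl6, Srebf1, Mlxipl, Thrsp and Pnpla3. They were chosen by name, and the rows of the deposited table were found by gene identifier. All 10 were present among 55385 genes. The table holds short-read RNA-Seq counts of 8 tissues (liver, brown and white adipose tissue, muscle, kidney, lung, spleen and heart) of male C57BL/6 mice that had either free access to standard chow (fed) or a 24 h fasting period (fasting). The mice were acquired at 12 weeks of age and acclimatized for 10 to 14 days. Samples of 3 mice were combined before RNA extraction, which leaves 16 libraries with 1 for every pairing of tissue and treatment. No value therefore has a replicate error, and a test on the fed and the fasting library of a tissue compares those libraries and not the conditions.

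In this pathway, citrate leaves the mitochondrion and is split by ATP citrate lyase (Acly) to acetyl-CoA, which acetyl-CoA carboxylase turns into malonyl-CoA. Fatty acid synthase (Fasn) builds palmitate from malonyl-CoA, Elovl6 lengthens palmitate to stearate, and stearoyl-CoA desaturase (Scd1) places the first double bond. After a meal, insulin acts on the enzyme genes largely through SREBP-1c, a product of Srebf1, and glucose acts through ChREBP, the product of Mlxipl. Liver and fat are the classical sites of the pathway, and feeding after a fast is its best known stimulus.

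Library totals ranged from 14245178 to 36069968 counts, and the floor of 3 counts lies at 0.0832 to 0.211 counts-per-million (CPM), depending on the library. The marker lists of hepatocytes, adipocytes, brown adipocytes, skeletal muscle, cardiomyocytes, kidney tubules, lung epithelium and B cells each had their highest summed CPM in both libraries of the matching tissue, by a margin over the next tissue that was narrowest for adipocyte genes in white over brown adipose tissue (1.74-fold). Markers of other cell types differed between the libraries of some tissues. In white adipose tissue, 8 of 8 genes of a ciliated and duct epithelium list, drawn up after the values were seen, were higher in the fasting library. Their summed level was 48.3 CPM fed and 1457 CPM fasting, of which Lrp2 34.9 and 709.6 CPM. Of 8 adipocyte markers there, 3 were lower (Lep, Plin1 and Retn) and 0 higher in the fasting library (24135 and 21160 CPM). In brown adipose tissue, 6 of 6 skeletal muscle markers were lower in the fasting library (2388 and 1097 CPM). In muscle, 5 of 8 adipocyte markers were lower in the fasting library (234.9 and 213.3 CPM, Adipoq 16.1 and 6.79 CPM), and in lung 6 of 6 cardiomyocyte markers (1094 and 555.8 CPM) and 6 of 6 B cell markers (388.4 and 202.9 CPM) were. In liver 7 of 8 pancreatic acinar markers were higher in the fasting library (106.8 and 228.8 CPM), and in heart 8 of 8 hepatocyte markers were (25.73 and 95.03 CPM). In lung 5 of 8 adipocyte markers were higher and 1, Lep, lower (178.7 and 302.1 CPM). In kidney 6 of 8 hepatocyte markers were lower and 1 higher (1271 and 1672 CPM, of which Apob, not called, 1106 and 1561 CPM). There 3 of 6 brown adipocyte markers were higher (26.6 and 34.6 CPM), and of 8 adipocyte markers 3 were higher and 2 lower (116 and 193 CPM). In white adipose tissue 2 of 6 B cell markers were lower (348 and 84.4 CPM). In spleen 8 of 8 acinar markers were lower (510.6 and 11.7 CPM) and 5 of 5 erythroid markers higher (3002 and 7186 CPM) in the fasting library. The part of such cells in the members' values was not tested, and in pooled tissue a lower share of a cell type and less RNA per cell cannot be told apart.

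On GRCm38, as the deposited table gives them, Acly lies at chr11:100476353-100528000 (minus strand), Acaca at chr11:84129672-84401651 (plus), Fasn at chr11:120805846-120824547 (minus) and Srebf1 at chr11:60199089-60222581 (minus). Acacb lies at chr5:114146535-114250761 (plus) and Mlxipl at chr5:135089890-135138382 (plus), so that chromosomes 11 and 5 hold 6 of the 10 genes. Scd1 lies at chr19:44394455-44407879 (minus), Elovl6 at chr3:129532355-129638495 (plus), Thrsp at chr7:97412938-97417730 (minus) and Pnpla3 at chr15:84167837-84187236 (plus). The values are sums over all annotated exons of a gene, so the transcripts that start at different promoters of Srebf1 or Mlxipl are counted together. Exons of Srebf1 overlap those of Rai1 on the opposite strand over 109 of 5634 bases, and the strand setting of the counting is not given in the sources used here.

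RefSeq (GRCm38.p6) lists 12 start sites for 9 of the 10 genes, and the 300 bases from 250 before to 50 after each start were searched on both strands for 3 short motifs. CCAAT, the box bound by NF-Y, was found in 8 of these 12 windows (66.7%), beside 37.4% of 32851 windows of the same length over all genes. CACGTG, the E-box that forms part of the elements read by ChREBP and USF, was in 1 of 12 windows (7.15% of all windows), and TCACNCCAC, a form of the sterol response element, was in 1 of 12 (1.24% of all windows). The windows of Fasn, Thrsp and Pnpla3 are shown because these genes had the lowest log2 fold changes in white adipose tissue, that of Mlxipl because it holds the E-box, and that of Acacb because this gene went the other way. Capitals mark motif matches on either strand: CCAAT or its reverse ATTGG, and CACGTG in Mlxipl.
Fasn, chr11:120824498-120824797, minus strand: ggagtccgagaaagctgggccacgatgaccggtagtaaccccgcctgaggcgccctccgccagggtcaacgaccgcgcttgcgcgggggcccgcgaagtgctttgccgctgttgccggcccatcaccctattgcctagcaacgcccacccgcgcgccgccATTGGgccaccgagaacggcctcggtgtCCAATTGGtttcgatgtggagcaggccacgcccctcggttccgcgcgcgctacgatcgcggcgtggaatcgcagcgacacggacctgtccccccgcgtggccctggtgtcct
Thrsp, chr7:97417501-97417800, minus strand: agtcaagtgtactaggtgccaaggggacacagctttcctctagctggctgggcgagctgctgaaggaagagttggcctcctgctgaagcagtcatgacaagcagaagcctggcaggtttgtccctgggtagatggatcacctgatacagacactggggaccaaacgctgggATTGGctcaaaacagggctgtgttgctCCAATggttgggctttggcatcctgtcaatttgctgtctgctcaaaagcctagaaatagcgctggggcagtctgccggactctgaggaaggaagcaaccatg
Pnpla3, chr15:84167566-84167865, plus strand: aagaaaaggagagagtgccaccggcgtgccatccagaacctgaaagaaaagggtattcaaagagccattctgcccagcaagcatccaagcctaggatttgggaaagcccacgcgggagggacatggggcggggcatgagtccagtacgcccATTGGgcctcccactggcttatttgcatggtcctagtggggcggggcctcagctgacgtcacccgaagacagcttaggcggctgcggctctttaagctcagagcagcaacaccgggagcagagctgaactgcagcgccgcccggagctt
Mlxipl, chr5:135089640-135089939, plus strand: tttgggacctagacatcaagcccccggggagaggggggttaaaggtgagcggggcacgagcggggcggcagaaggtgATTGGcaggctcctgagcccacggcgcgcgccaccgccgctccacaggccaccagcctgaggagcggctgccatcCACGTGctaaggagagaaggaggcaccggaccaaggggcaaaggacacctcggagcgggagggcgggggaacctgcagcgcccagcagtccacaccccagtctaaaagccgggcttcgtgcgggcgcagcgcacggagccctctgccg
Acacb, chr5:114165268-114165567, plus strand: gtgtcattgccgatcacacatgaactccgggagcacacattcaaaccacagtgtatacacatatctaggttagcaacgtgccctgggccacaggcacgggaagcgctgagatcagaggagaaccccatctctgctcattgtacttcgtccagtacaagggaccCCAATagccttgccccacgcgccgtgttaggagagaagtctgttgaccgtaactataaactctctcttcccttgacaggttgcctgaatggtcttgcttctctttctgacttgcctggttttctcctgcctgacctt

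Fasn carried 3 CCAAT matches, which began 90, 62 and 59 bases before the start, the last pair overlapping. Thrsp carried 2 matches, at 79 and 52 bases before the start. Pnpla3 and Acacb carried 1 match each, at 99 and 87 bases before the start, and the Acacb start that RefSeq lists lies within the gene as counted. The E-box of Mlxipl began 98 bases before its start and a CCAAT match 173 bases before it. A match is a description of these letters and not of binding.

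In the fed libraries the pathway was most abundant in brown adipose tissue. The 10 genes together took 9.98% of all counts in fed brown adipose tissue, 3.35% in white adipose tissue, 1.15% in liver and 0.456% in lung, and between 0.0852% (heart) and 0.129% (kidney) in the other tissues. Of the genes of the mitochondrial chromosome, 0 had a count, so these shares, and all CPM and TPM, leave out mitochondrial RNA. Scd1 alone held 55.6% of the members' counts in fed brown adipose, 69.3% in white adipose and 75.6% in liver. Compared per length, in transcripts-per-million (TPM), brown adipose tissue had the highest fed level of 8 genes. Fed Acly, for example, stood at 2426 TPM in brown adipose tissue, 6.71 times its level in white adipose tissue. Pnpla3 was an exception, with 678 TPM in white and 415 TPM in brown adipose tissue and under 10 TPM in every other tissue. For Srebf1, the levels of 243 TPM in white and 240 TPM in brown adipose tissue had overlapping 95% counting intervals, and liver followed with 144 TPM. Mlxipl was the gene whose liver level came closest to the top, at 136 TPM against 170 TPM in brown adipose tissue, and it was lowest in spleen (0.387 TPM).

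**Figure D1:**
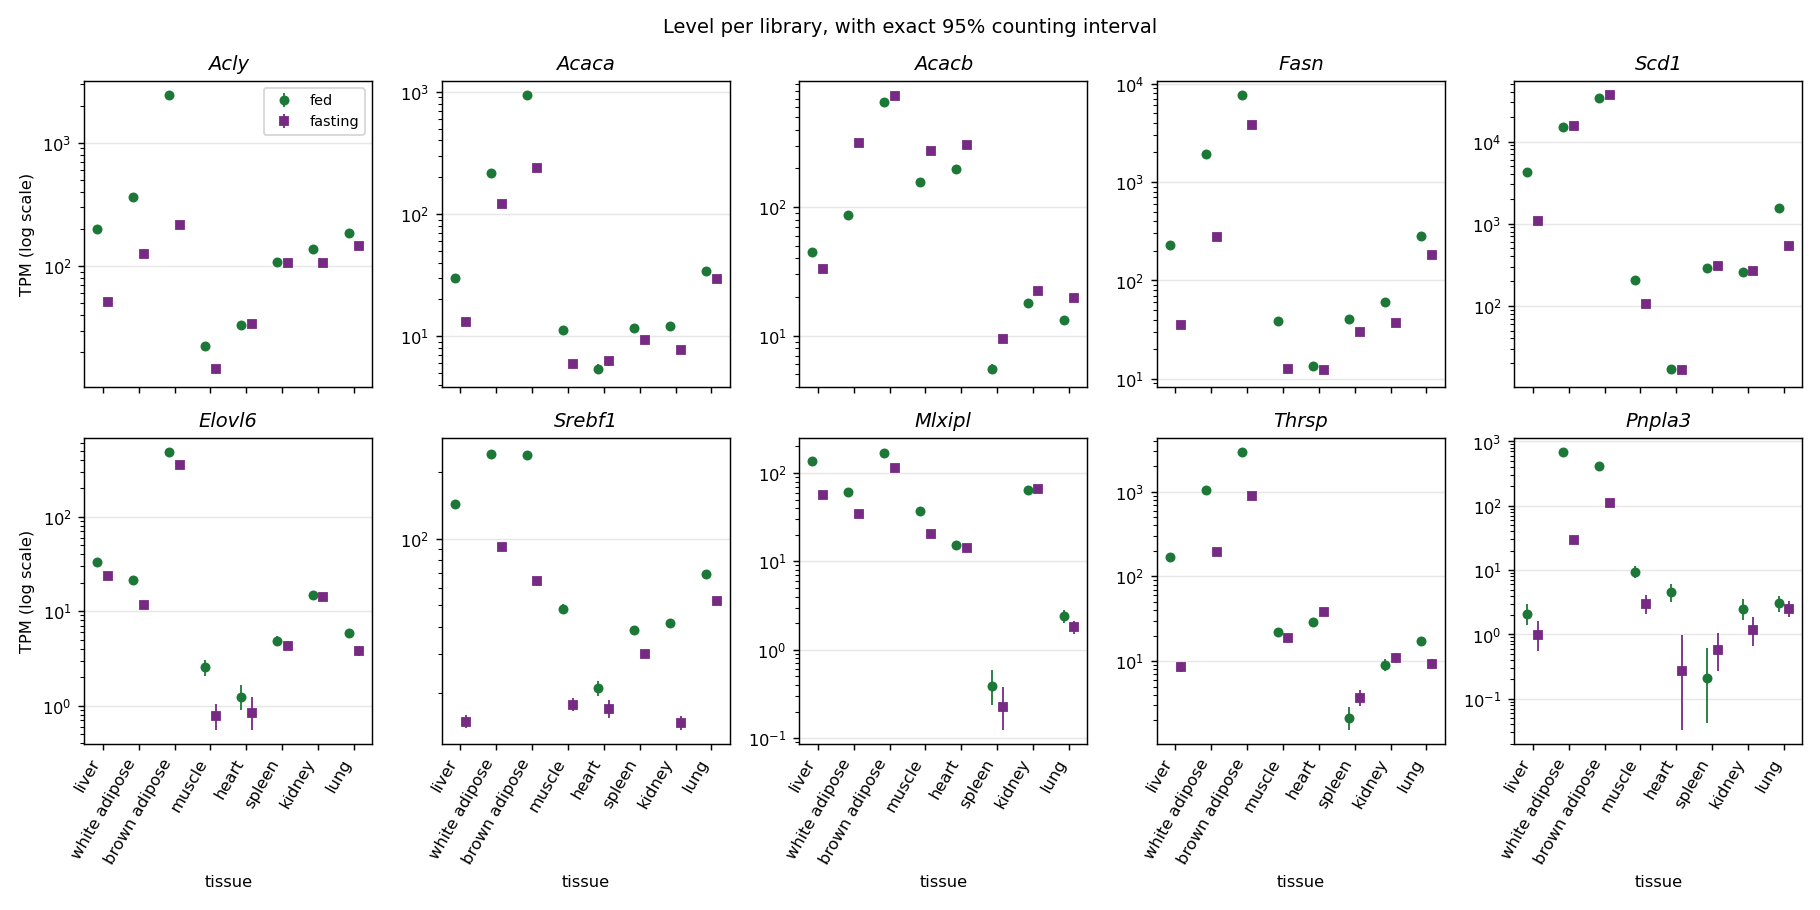
Level of each of the 10 genes in each of the 16 libraries, in TPM on a log scale, with fed libraries as green circles and fasting libraries as purple squares. Bars are exact 95% Poisson intervals of the counts. Acly and Thrsp show their widest fed to fasting gaps in liver and both adipose tissues, whereas Acacb is higher in the fasting library of every tissue but liver.

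Within each tissue, a gene was called when the log2 fold change of CPM between fasting and fed (with 0.01 CPM added) was above 0.5 in size and Fisher's exact test on the counts gave an unadjusted p under 0.01. In liver, 9 of 10 members fell and none rose, where 9.52% of all 25048 genes with a count were called lower and 4.46% higher. Such shares include genes of few counts, which can hardly be called: 14085 genes reached 1 CPM in a liver library. In white adipose tissue 8 members fell and 1 rose (5.84% and 13.2% of all genes), and in brown adipose tissue 7 fell and none rose (7.58% and 5.39%). In muscle 8 fell and 1 rose (9.39% and 4.42%), beside 5 of 8 adipocyte markers called lower there. Lung had 4 lower and 1 higher (6.49% and 2.68%), kidney 3 lower and none higher (3.93% and 2.77%), heart 1 lower and 1 higher (5.8% and 4.33%) and spleen none lower and 2 higher (1.62% and 2.31%). The median log2 fold change of the 10 members was −1.70 in liver, −1.37 in brown adipose, −1.15 in white adipose and −0.99 in muscle, and between −0.44 (lung) and −0.08 (heart) in the other tissues. Over all genes of at least 1 CPM in a library of the tissue, the median lay between −0.14 and 0.07. If a coefficient of variation of 0.4 between pools was assumed in edgeR's exact test, the calls were Fasn, Srebf1 and Thrsp in liver, Fasn, Thrsp and Pnpla3 in white adipose, Acly in brown adipose and Pnpla3 in heart, and there were none in muscle, spleen, kidney and lung.

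**Figure D2:**
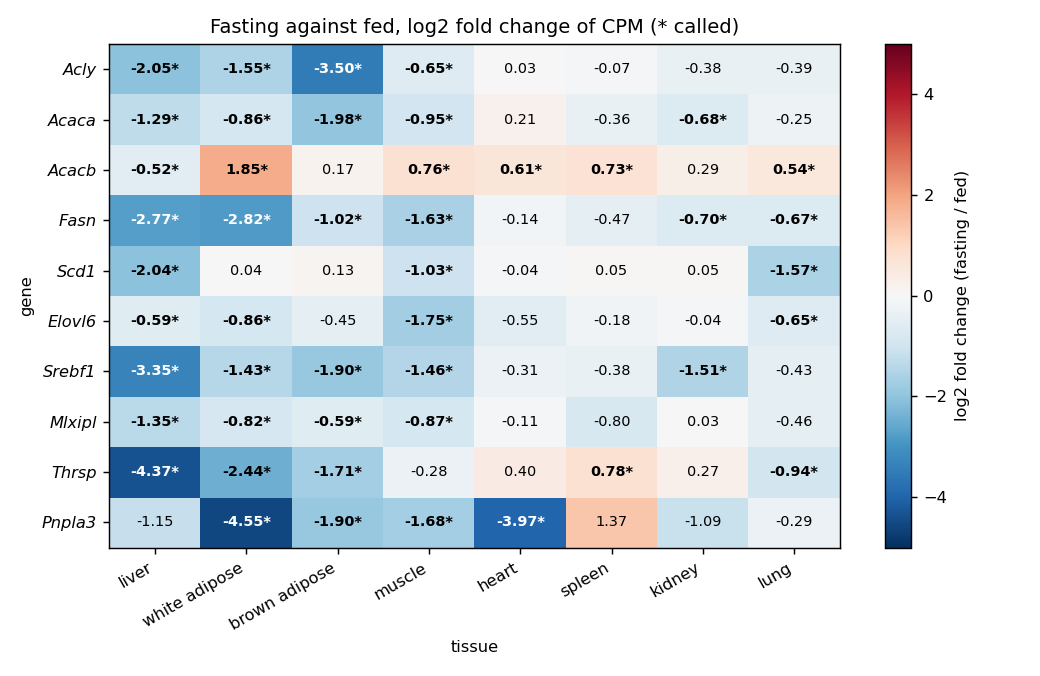
Log2 fold change (fasting over fed CPM, 0.01 CPM added) of each gene in each tissue, with blue for lower and red for higher in the fasting library. An asterisk and bold type mark calls (log2 fold change above 0.5 in size and Fisher's p under 0.01). The left 3 columns and muscle are mostly blue, and the row of Acacb holds red calls in 5 tissues, up to 1.85 in white adipose tissue.

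Acly, which supplies cytosolic acetyl-CoA, fell in 4 tissues. Its level was 448 CPM in fed and 108 CPM in fasting liver, 604 and 205 CPM in white adipose tissue, and 4331 and 381 CPM in brown adipose tissue. In the other tissues it was 31.6 and 20.2 CPM in muscle, 55.2 and 56.2 CPM in heart, 237.0 and 226 CPM in spleen, 252 and 194 CPM in kidney, and 348 and 265 CPM in lung. Fed brown adipose tissue stood far above every other library, and fasting brown adipose tissue, at 381 CPM, lay between fed lung and fed liver. The log2 fold change was −3.50 there (95% counting interval −3.55 to −3.47), −2.05 in liver (−2.11 to −1.99), −1.55 in white adipose (−1.60 to −1.51) and −0.65 in muscle (−0.80 to −0.49). Heart, spleen, kidney and lung did not pass the call, with values between −0.39 and 0.03.

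The acetyl-CoA carboxylases went apart. Acaca encodes the cytosolic form (ACC1), whose malonyl-CoA feeds fatty acid synthesis, and Acacb the form at the mitochondrial outer membrane (ACC2), whose malonyl-CoA restrains fatty acid entry through carnitine palmitoyltransferase. Acaca was at 216 CPM in fed and 88.5 CPM in fasting liver, 1174 and 647 CPM in white adipose, and 5402 and 1368 CPM in brown adipose tissue. In the other tissues it was 51.6 and 26.6 CPM (muscle), 29.2 and 33.6 CPM (heart), 82.5 and 64.3 CPM (spleen), 72.1 and 45.2 CPM (kidney), and 206.0 and 173 CPM (lung). It fell in 5 tissues, by 1.98 on the log2 scale in brown adipose, by 1.29 in liver, by 0.95 in muscle, by 0.86 in white adipose and by 0.68 in kidney, and no tissue called it higher.

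Part of the Acaca reads may be counted elsewhere. Of the 17075 distinct words of 31 bases in the annotated Acaca transcripts, 5412 (31.7%) also occur in Gm5182, a processed pseudogene. Gm5182 had 12921 counts in fed and 2933 counts in fasting brown adipose tissue and 4006 and 2519 counts in white adipose tissue, with log2 fold changes of −1.92 and −0.91. Adding these counts to those of Acaca gave log2 fold changes between −1.97 (brown adipose) and 0.25 (heart) and changed no call.

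Acacb stood at 183 CPM in fed and 128 CPM in fasting liver, 264 and 948 CPM in white adipose, and 2142 and 2403 CPM in brown adipose tissue. Its other values were 406 and 689 CPM in muscle, 605 and 924 CPM in heart, 22.1 and 36.5 CPM in spleen, 60.5 and 74.1 CPM in kidney, and 45.5 and 66.2 CPM in lung. The fasting library was thus the higher in 7 of 8 tissues. Acacb rose in white adipose tissue (log2 fold change 1.85, 95% counting interval 1.81 to 1.89), muscle (0.76, 0.73 to 0.80), spleen (0.73, 0.57 to 0.88), heart (0.61, 0.57 to 0.65) and lung (0.54, 0.44 to 0.64). It did not pass the call in brown adipose tissue (0.17) and kidney (0.29), and it fell in liver (−0.52), a call that TMM factors ended at −0.40. The rise in white adipose tissue stood beside the rise of the ciliated and duct epithelium list given above.

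As a result, the composition of acetyl-CoA carboxylase transcript shifted the same way throughout. Per length, Acacb made up 28.5% of the sum of both genes in fed and 72.2% in fasting white adipose tissue, and 41.3% and 75.7% in brown adipose tissue. The shares were 60.1% and 71.9% in liver, 59.8% and 74.4% in kidney, 32.2% and 50.2% in spleen, and 28.1% and 40.5% in lung. Muscle and heart, where Acacb predominates already, went from 93.3% to 97.9% and from 97.4% to 98.0%. The share was higher in the fasting library of 8 of 8 tissues, and the exact binomial 95% intervals of the fed and fasting share overlapped in none. These intervals cover counting error only, and the level of the share depends on the annotated exon lengths.

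**Figure D3:**
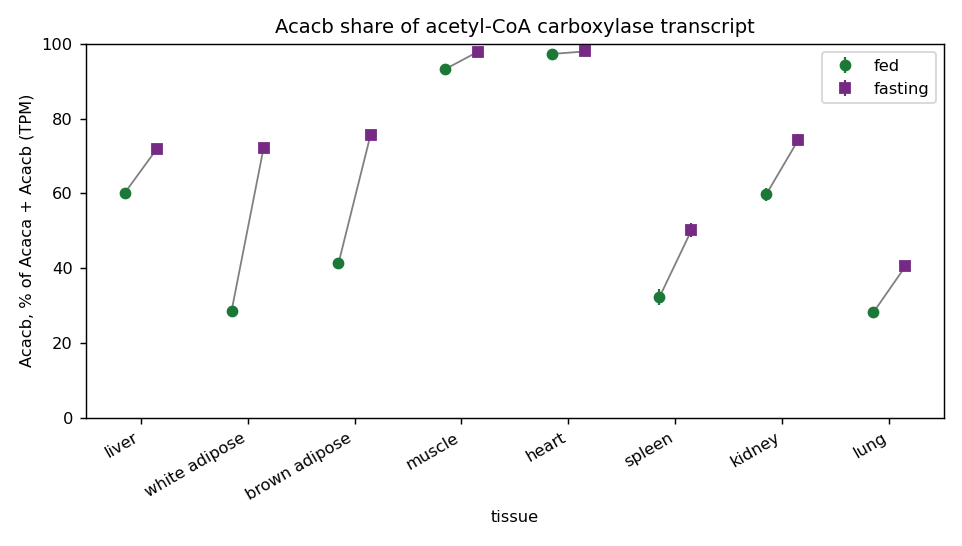
Share of Acacb in the summed TPM of Acaca and Acacb in the fed (green circle) and fasting (purple square) library of each tissue, in percent, with exact binomial 95% intervals of the counts. Grey lines join the libraries of a tissue, and every line goes up, most steeply in white adipose tissue (28.5% to 72.2%).

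Fasn, the multifunctional enzyme that makes palmitate, fell in 6 tissues. Its level was 1050 CPM in fed and 154 CPM in fasting liver, 6614 and 939 CPM in white adipose tissue, and 28249 and 13937 CPM in brown adipose tissue. Elsewhere it was 113 and 36.4 CPM in muscle, 46.6 and 42.5 CPM in heart, 182 and 132 CPM in spleen, 227 and 139.6 CPM in kidney, and 1101 and 692 CPM in lung. Brown adipose tissue kept the highest level in either state, and its fasting library was above the fed library of white adipose tissue. The log2 fold change was −2.82 in white adipose tissue (95% counting interval −2.83 to −2.80) and −2.77 in liver (−2.82 to −2.72), and −1.63 in muscle, −1.02 in brown adipose, −0.70 in kidney and −0.67 in lung. Spleen (−0.47) and heart (−0.14) did not pass the call. Among the 6 members that encode enzymes of fatty acid synthesis, elongation and desaturation, the lowest value was that of Acly in brown (−3.50, against −1.55 in white) and of Fasn in white adipose tissue (−2.82, against −1.02 in brown), a difference between libraries that has no replicate test.

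Scd1, which desaturates stearate and palmitate, parted liver from fat. It was at 8682 CPM in fed and 2113 CPM in fasting liver, but at 23188 and 23775 CPM in white adipose tissue and 55437 and 60840 CPM in brown adipose tissue. In the other tissues it was 272 and 133 CPM in muscle, 26.4 and 25.6 CPM in heart, 581 and 603 CPM in spleen, 432 and 447 CPM in kidney, and 2690 and 905 CPM in lung. The gene fell in liver (log2 fold change −2.04, 95% counting interval −2.05 to −2.02), lung (−1.57, −1.59 to −1.55) and muscle (−1.03, −1.09 to −0.97). The fall in muscle stood beside 5 of 8 adipocyte markers called lower there, and the part of fat cells in it was not tested. In white and brown adipose tissue the values were 0.04 and 0.13, and in heart, spleen and kidney they lay between −0.04 and 0.05. Because Scd1 is so abundant, it carried the members' sum in fat: without it, the other 9 genes summed to 10294.6 CPM in fed and 3132 CPM in fasting white adipose, 44335.6 and 19909.9 CPM in brown adipose, and 2804 and 704.5 CPM in liver. Up to 5.84% of the 31-base words of Scd1 also occur in Scd2, Scd3 or Scd4. Adding all counts of Scd2 to Scd1 gave −0.62 in heart and −1.04 in lung, and adding those of Scd4 gave 0.96 in heart. In heart Scd2 and Scd4 had values of their own, −1.25 and 1.89, so these sums cannot show whether reads of Scd1 were counted elsewhere.

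Elovl6, the elongase of palmitate, fell in 4 tissues and had modest changes in the tissues that hold most of it. It was at 90.7 CPM in fed and 60.3 CPM in fasting liver, 42.9 and 23.6 CPM in white adipose tissue, and 1043 and 765 CPM in brown adipose tissue. The other values were 4.36 and 1.29 CPM in muscle, 2.50 and 1.70 CPM in heart, 12.8 and 11.2 CPM in spleen, 32.7 and 31.8 CPM in kidney, and 13.2 and 8.43 CPM in lung. In TPM, brown adipose tissue stood 14.3 times above the next tissue, liver, in the fed state. The log2 fold change was −1.75 in muscle (from 105 and 40 counts), −0.86 in white adipose, −0.65 in lung and −0.59 in liver, where TMM factors ended the call at −0.46. In brown adipose tissue it was −0.45, under the size needed.

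Srebf1 encodes SREBP-1a and SREBP-1c, membrane-bound factors that are cleaved to enter the nucleus, and it fell in 5 tissues. It was at 342 CPM in fed and 33.5 CPM in fasting liver, 432 and 161 CPM in white adipose tissue, and 457 and 122 CPM in brown adipose tissue. In the other tissues it was 72.5 and 26.3 CPM in muscle, 37.5 and 30.3 CPM in heart, 89.7 and 68.8 CPM in spleen, 81.3 and 28.6 CPM in kidney, and 137.6 and 102 CPM in lung. All 8 tissues were lower in the fasting library. The log2 fold change was −3.35 in liver (95% counting interval −3.46 to −3.25), −1.90 in brown adipose, −1.51 in kidney, −1.46 in muscle and −1.43 in white adipose tissue, and lung, spleen and heart lay between −0.43 and −0.31 without passing the call. In TPM, fed liver (144) stood next to both adipose tissues, whereas fasting liver (14.9) overlapped fasting heart (17.0) and kidney (14.6) within counting error.

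Mlxipl, whose product ChREBP is activated by glucose metabolites, fell in 4 tissues and by less than Srebf1 in each. It was at 318 CPM in fed and 124 CPM in fasting liver, 106 and 60.1 CPM in white adipose tissue, and 318 and 212 CPM in brown adipose tissue. In the other tissues it was 54.6 and 29.8 CPM in muscle, 27.0 and 25.0 CPM in heart, 0.883 and 0.503 CPM in spleen, 124 and 126 CPM in kidney, and 4.72 and 3.44 CPM in lung. The log2 fold change was −1.35 in liver, −0.87 in muscle, −0.82 in white adipose and −0.59 in brown adipose tissue. In kidney, where Srebf1 fell, Mlxipl was at 0.03 (95% counting interval −0.05 to 0.10).

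Thrsp (Spot 14), a nuclear and cytosolic protein of lipogenic tissues that is known as a thyroid hormone and carbohydrate responsive gene, fell in 4 tissues. It was at 155 CPM in fed and 7.45 CPM in fasting liver, 726 and 134 CPM in white adipose tissue, and 2176 and 664 CPM in brown adipose tissue. Its other values were 13.0 and 10.6 CPM in muscle, 19.9 and 26.3 CPM in heart, 1.90 and 3.27 CPM in spleen, 6.91 and 8.34 CPM in kidney, and 13.4 and 7.01 CPM in lung. The liver value was the lowest of Thrsp in any tissue (log2 fold change −4.37, 95% counting interval −4.60 to −4.16), and in liver 14 of 14085 genes of at least 1 CPM had a lower value. White adipose tissue had −2.44, brown adipose −1.71 and lung −0.94. In spleen Thrsp rose (0.78, from 43 and 91 counts), and heart (0.40), kidney (0.27) and muscle (−0.28) did not pass the call.

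Pnpla3 encodes adiponutrin, a lipid droplet protein of the patatin-like phospholipase family. It was at 332 CPM in fed and 14.2 CPM in fasting white adipose tissue, 217 and 58.2 CPM in brown adipose tissue, and 1.35 and 0.601 CPM in liver. Its counts elsewhere were 93 and 37 in muscle, 38 and 2 in heart, 3 and 10 in spleen, 30 and 16 in kidney, and 50 and 49 in lung. Pnpla3 was thus a gene of fat in these libraries, in the fed state above all. The log2 fold change was −4.55 in white adipose tissue (95% counting interval −4.70 to −4.40), where 8 of 17494 genes of at least 1 CPM had a lower value, −1.90 in brown adipose and −1.68 in muscle. Beside the muscle value, the adipocyte markers Plin1 (−1.78), Retn (−1.57), Lep (−1.43), Adipoq (−1.24) and Cfd (−0.98) were called lower in muscle. In heart it was −3.97 with an interval of −7.17 to −2.12, beside adipocyte markers that had 37 and 6 counts (Cfd, called lower), 15 and 4 (Adipoq) and 10 and 2 (Plin1) there, whereas Fabp4 and Lipe were called higher. In liver, with 31 and 15 counts, Pnpla3 was at −1.15 without a call.

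To ask which members moved across tissues beyond their spread, a single edgeR quasi-likelihood model took in all 16 libraries, with tissue as a block. All tissues of a treatment stem from 1 pool of mice and so are not independent, and treatment cannot be told apart from pool. The SE and p-values here, by edgeR or DESeq2, measure spread between tissues and not between mice. In this fit, 2 members fell at a Benjamini-Hochberg adjusted p under 0.05, where 2.08% of 17296 genes were called lower and 2.31% higher: Srebf1, by 1.29 on the log2 scale (SE 0.30, adjusted p 0.0423), and Mlxipl, by 0.57 (SE 0.14, adjusted p 0.0494). Both lie close to the threshold. Fasn (−1.21, SE 0.33, adjusted p 0.0621), Elovl6 (−0.55, SE 0.15, 0.0631), Pnpla3 (−1.95, SE 0.54, 0.0664) and Acaca (−0.73, SE 0.21, 0.0725) did not pass by edgeR. Acacb was at 0.59 (SE 0.19, adjusted p 0.101 by edgeR). DESeq2's Wald test on the same model called 7 members lower and Acacb higher, where it called 6.09% of all genes lower and 5.2% higher. With any 1 of the tissues left out, edgeR made 0 to 2 calls, where 0.297% to 2.22% of genes were lower and 0.594% to 1.98% higher. The calls were Srebf1 lower and Acacb higher without liver (0.73, edgeR adjusted p 0.0489), and the count was lower for every other tissue left out (0 without muscle, white adipose, brown adipose, heart or lung, and 1 without spleen or kidney).

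A second edgeR model gave the change separately in liver with both adipose tissues and in the other 5 tissues. Within the first set 6 members fell, where 1.16% of 17296 genes were called lower and 1.06% higher. Thrsp had a log2 fold change of −2.78 (SE 0.45, edgeR adjusted p 0.0179), Acly −2.34 (SE 0.31, 0.0118), Fasn −2.20 (SE 0.39, 0.0258), Srebf1 −2.20 (SE 0.35, 0.0176), Acaca −1.36 (SE 0.24, 0.0254) and Mlxipl −0.91 (SE 0.18, 0.0363). Pnpla3 had the lowest value, −2.91, and the widest error (SE 0.67, edgeR adjusted p 0.0570). DESeq2 called 7 members in this set, where it called 4.22% of genes lower and 3.13% higher. Acly, Srebf1 and Thrsp were called in each of the 8 edgeR fits that left out 1 tissue, Acaca in 5, Fasn in 4, Mlxipl in 3 and Pnpla3 in 1. In these fits 0.479% to 2.53% of genes were called lower, and the count of members was 3 without spleen and 3 without lung.

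Within the other 5 tissues no member was called by edgeR (0.0694% of genes lower and 0.22% higher), with 4 members at an unadjusted p under 0.05 and none called by DESeq2 (0.696% and 1.58% of genes). The values there ran from −1.07 (Pnpla3) to 0.64 (Acacb). The difference between the sets was tested as an interaction. No member passed in edgeR (0.0116% of genes lower in the first set and 0.0173% higher), 6 had an unadjusted p under 0.05, and DESeq2 called 2, Acly and Thrsp (0.385% and 0.204% of genes). The difference was −2.84 for Thrsp (95% interval −4.08 to −1.60, edgeR adjusted p 0.158) and −2.11 for Acly (−2.96 to −1.25, adjusted p 0.134). For Scd1 (−0.14, −1.43 to 1.15), Elovl6 (−0.11, −0.81 to 0.58) and Acacb (−0.15, −1.07 to 0.77) the intervals reached to both sides of 0. These values depended on single tissues: without white adipose tissue the Acacb difference was −0.75 (−1.26 to −0.24, edgeR adjusted p 0.421) and without liver 0.32, and the Scd1 difference was 0.50 without liver. Without brown adipose tissue edgeR called 3 members for the difference (Acly, Fasn and Thrsp, where 0.0857% of genes were lower and 0.354% higher), and without liver 2 (Acly and Thrsp, where 0.278% were lower and 0.625% higher).

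**Figure D4:**
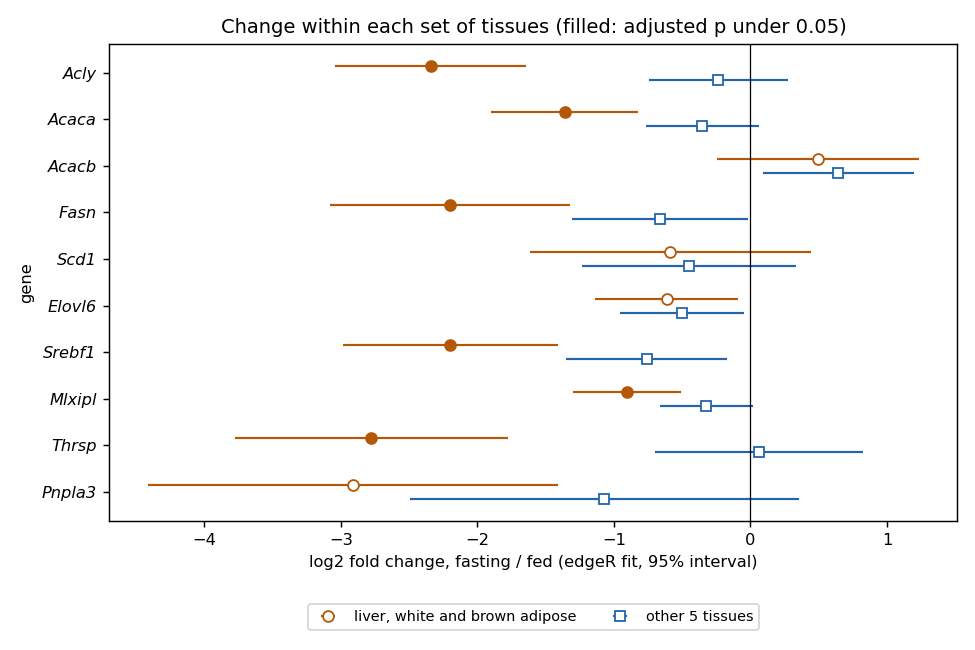
Log2 fold change (fasting over fed) of each gene from the edgeR model with 2 sets of tissues, with 95% intervals. Brown circles are liver with white and brown adipose tissue, blue squares the other 5 tissues, and filled symbols have a Benjamini-Hochberg adjusted p under 0.05. The circles of Acly, Fasn, Srebf1, Thrsp and Pnpla3 lie below −2, and all 10 squares are open.

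The genes around the pathway were described by lists in liver and both adipose tissues. Of 8 genes that supply acetyl-CoA and NADPH, 6 fell in liver, 7 in white and 7 in brown adipose tissue, and none rose, where 9.52%, 5.84% and 7.58% of all genes were called lower in these tissues. Acss2, which activates acetate, went from 279 to 85.1 CPM in liver (log2 fold change −1.71) and from 634 to 111 CPM in brown adipose tissue (−2.51). Me1, the cytosolic malic enzyme, went from 214 to 92.0 CPM in liver and from 311 to 116 CPM in white adipose tissue (−1.42). White adipose Idh1 had −1.71 and brown adipose Pgd, of the pentose phosphate pathway, −1.98. Me1 was called for the difference between the sets of tissues (−1.43, SE 0.15, edgeR adjusted p 0.0156), which no member was.

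Of 8 genes of SREBP processing and the LXR receptors, 2 fell and 1 rose in liver, 1 fell and 1 rose in white adipose, and 1 fell in brown adipose tissue. The shares of all genes called were 9.52% lower and 4.46% higher in liver, 5.84% and 13.2% in white and 7.58% and 5.39% in brown adipose tissue, and the counts in fat lie near them. The INSIG proteins hold SREBP in the endoplasmic reticulum, and their genes went opposite ways in liver: Insig1 from 462 to 56.8 CPM (−3.02) and Insig2 from 272 to 587 CPM (1.11). White adipose tissue had the same directions (−1.28 and 0.70). In brown adipose tissue Insig1 fell (−0.94) and Srebf2 was at −0.46.

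Glycerolipid synthesis esterifies the new fatty acids. Of its 6 genes none fell and 3 rose in liver, 2 fell and 2 rose in white adipose, and 1 fell in brown adipose tissue, beside 9.52% of all genes lower and 4.46% higher in liver, 5.84% and 13.2% in white and 7.58% and 5.39% in brown adipose tissue. The phosphatidate phosphatases Lpin2 (1.53) and Lpin1 (1.44) rose in liver. Dgat2, which makes triacylglycerol, went from 2114 to 167 CPM in white adipose tissue (−3.66) and Agpat2 from 334 to 85.5 CPM (−1.97). In brown adipose tissue Agpat2 had −1.31 and Lpin1 0.46, the latter without a call.

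Among 9 paralogs and partners of the members, 2 fell and 2 rose in liver, 2 fell and 3 rose in white adipose, and 2 fell and 2 rose in brown adipose tissue, beside the same shares of all genes. Mid1ip1, the paralog of Thrsp, went from 57.4 to 7.21 CPM in liver (−2.99). Pnpla2, the triacylglycerol lipase ATGL and a relative of Pnpla3, rose in liver (1.75) and white adipose tissue (0.71). In brown adipose tissue, where Scd1 was not called, Scd2 went from 572 to 40.7 CPM (−3.81) and Scd3 from 4.40 to 81.8 CPM (4.21), and in white adipose tissue Scd2 had −0.95.

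Control of acetyl-CoA carboxylase was followed through 8 genes, the AMPK subunits and malonyl-CoA decarboxylase (Mlycd), which removes the product. None fell and 1 rose in liver (Mlycd, 0.54, with Prkaa2 at −0.37 without a call), 2 fell in white adipose (Prkag3, −2.69, and Prkag2, −0.53), and 1 fell and 2 rose in brown adipose tissue (Prkag3, −1.95, and Mlycd, 0.70, among them). The liver count lies near the 9.52% of all genes called lower and 4.46% called higher, and the shares in fat were 5.84% and 13.2% (white) and 7.58% and 5.39% (brown). Prkag3, a subunit gene of skeletal muscle, had 23 and 5 counts in brown adipose tissue, beside the fall of the skeletal muscle markers there. In white adipose tissue, where Prkag3 also fell, 0 of 6 skeletal muscle markers were called lower and 1 higher (172.5 and 235.7 CPM).

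Of the genes that bring glucose into the pathway, liver pyruvate kinase (Pklr), a known ChREBP target, went from 202 to 41.0 CPM in liver (−2.30). In white adipose tissue Pklr went from 0.343 to 21.5 CPM (5.93), beside the rise of the ciliated and duct epithelium markers in that library. In brown adipose tissue the insulin-regulated transporter Slc2a4 fell (−1.02).

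**Figure D5:**
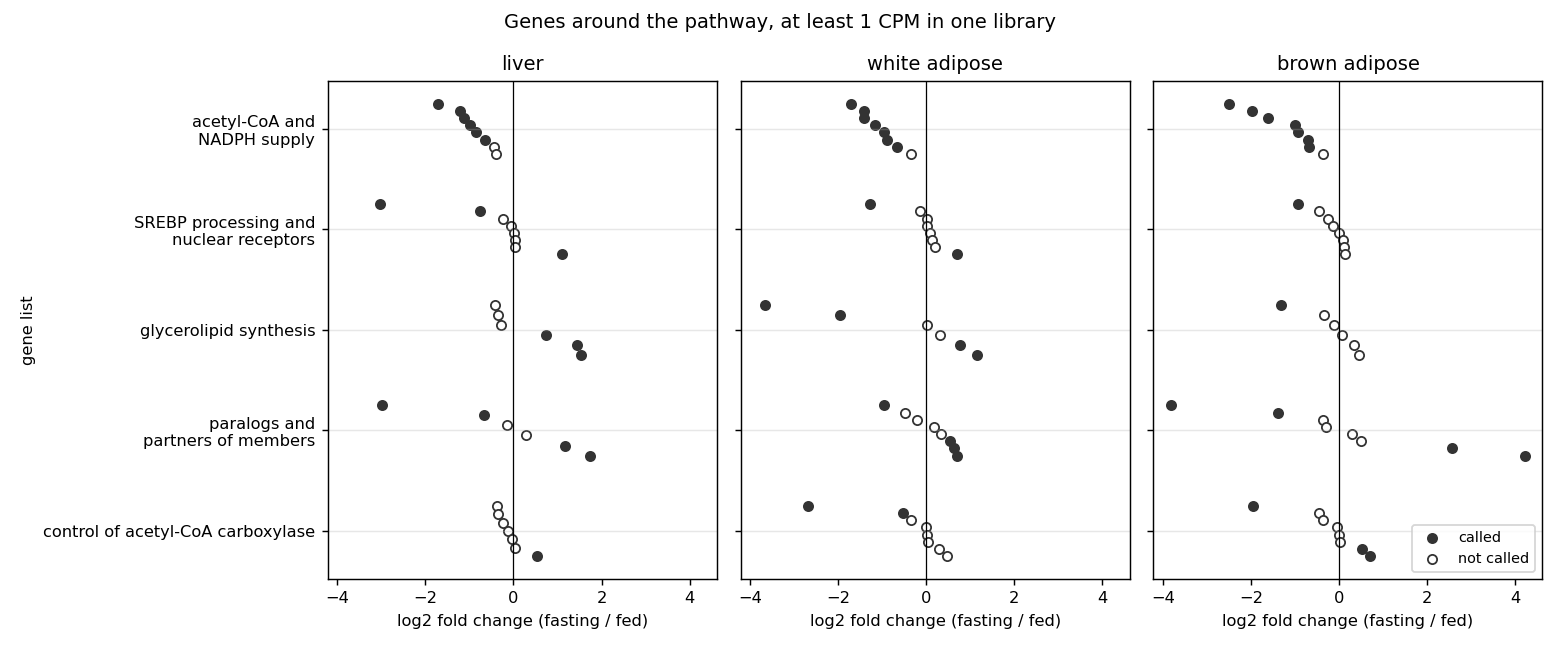
Log2 fold change (fasting over fed CPM) of the genes of 5 lists around the pathway in liver, white adipose and brown adipose tissue, for genes of at least 1 CPM in a library of the tissue. Filled points were called and open points were not. The acetyl-CoA and NADPH supply list lies to the left of 0 in all 3 tissues, and glycerolipid synthesis reaches from −3.66 (Dgat2) to above 1 in white adipose tissue.

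The genes whose level followed the pathway most closely were sought by Pearson correlation of log2(CPM + 1) with the mean of Acly, Acaca, Fasn, Scd1 and Elovl6 over the 16 libraries, among 14893 genes. They were Gm5182 (0.964), Ifi27 (0.963), Proca1 (0.950), Ap3s1 (0.944) and Vkorc1l1 (0.926). The first is the Acaca pseudogene described above. By Spearman correlation 3 of these 5 were again among the first 5, and over the 8 changes within tissues none was. The 16 points share tissues and pools of mice, so these are descriptions without a test.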

How the data were processed

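Strand-specific paired-end libraries (100 bp reads) from 8 tissues of fed and fasting mice were sequenced, with 1 pooled library for each tissue and treatment. According to the study's methods and the submitters' processing notes, the authors used fastp 0.23.2 for trimming, FastQC 0.11.8 for quality control, HISAT2 2.2.1.0 for alignment to GRCm38, and featureCounts of Subread 2.0 with GENCODE mouse release 24 for counting. The deposited table holds raw counts per gene, with coordinates and a summed exon length, and 0 columns of per-sample values were left unused. Multi-mapping, strand and pair settings are not given in the sources used here.

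CPM was computed on library totals and TPM from the deposited exon length. Within a tissue, Fisher's exact test (two-sided) compared the counts of the 2 libraries. Its p-values, like the Poisson and binomial 95% intervals, cover counting error only. Across tissues, edgeR's quasi-likelihood test was run with TMM factors, the filterByExpr filter (17296 genes kept) and Benjamini-Hochberg adjustment, first for 1 shared change and then for a change in each of 2 sets of tissues. The p-values of these fits, like those of DESeq2, reflect spread between tissues and not between mice, since each treatment is 1 pool. On simulated counts with 200 changed genes, the test within a tissue recovered 198 to 200 with 64 to 107 false calls. The shared fit recovered 198 with 13 false calls (fold 3, 17047 genes) and the difference between sets 176 with 6 false calls (fold 3, 17046 genes). The counts for the test within a tissue were drawn with counting error alone, and those for the fits with all libraries independent. These simulations therefore cannot give the false calls that variation between pools of mice would cause. Alternatives covered the pseudocount, scaling, filters, thresholds, an assumed variation between pools, DESeq2, and each tissue left out. The summed Acaca and Gm5182 counts and the ciliated and duct epithelium list were added after seeing the data.

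All 10 members were described. Of each list around the pathway, the 2 genes with the largest change in size among those of at least 1 CPM in a library were named in liver and both adipose tissues, together with the 5 genes of most similar pattern. An item of the glucose entry list, and counts over that list, are not reported here. The members and lists were chosen with earlier results of these data known. Exon overlaps and shared 31-base words were checked on GENCODE release 21 of the same build, and promoters were taken from RefSeq tables, in which Scd1 was not matched. The tools were edgeR 4.0.16 and DESeq2 1.42.0 under R 4.3.3, and scipy 1.17.1, pandas 2.3.3, numpy 2.4.6 and matplotlib 3.10.9 under Python 3.11.15.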

Additional observations from a re-analysis of the deposited data

Results flagged for a closer look

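Acacb and Thrsp were each called in opposite directions in different tissues. Acacb had a log2 fold change of 1.85 in white adipose tissue and of −0.524 in liver, a liver call that ended under TMM factors (−0.40) and DESeq2 size factors and had p = 0.204 by edgeR's exact test once the pools were taken to vary with a coefficient of 0.2. Thrsp had 0.781 in spleen and −4.37 in liver. With 1 library for each tissue and treatment, the difference between 2 single tissues was not tested in either case, and the Thrsp value in spleen rests on 43 and 91 counts.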

How the results depend on the processing

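The tests within a tissue rest on 1 pool of mice a treatment, so variation between mice is unknown, and depth limits Pnpla3 (at most 50 counts in liver, heart, spleen, kidney and lung), Elovl6 in heart (43 and 26 counts) and Mlxipl in spleen (20 and 14 counts). Of 320 fold changes of the members under 4 other pseudocounts or scalings, 316 were on the same side of the call, 4 lost it (Acacb and Elovl6 in liver, under TMM and DESeq2 size factors) and 0 reversed. TMM shifted all log2 fold changes by 0.12 in liver and −0.11 in white adipose tissue. A log2 fold change above 1 left 5 calls in muscle (of 9), 1 in heart (of 2), 0 in spleen (of 2), 1 in kidney (of 3) and 1 in lung (of 5). An assumed coefficient of variation of 0.2 in edgeR's exact test gave 4, 1, 0, 1 and 1 in the same tissues. At 0.4 the calls were 0 in muscle, 3 in liver (of 9), 3 in white adipose (of 9), 1 in brown adipose (of 7), 1 in heart, and 0 in spleen, kidney and lung. The cause of these differences was not tested beyond the stricter settings themselves.

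The shared fit called 2 members, where 2.08% of all genes were lower, 4 on library totals alone (3.69%), 4 without the filter (0.817%), 8 with DESeq2 (7 lower, beside 6.09%, and Acacb higher, beside 5.2% of genes higher), 0 without the tissue block (0.00578%), 0 without both adipose tissues (0.202%), and 0 to 2 with 1 tissue left out (0.297% to 2.22% lower and 0.594% to 1.98% higher, the 2 calls without liver being Srebf1 lower and Acacb higher). Within liver and both adipose tissues the 6 calls (1.16% of genes lower) became 7 with DESeq2 (4.22%), 3 with the adipose tissues alone as the set (2.03%) and 3 to 6 with 1 tissue left out (0.479% to 2.53%). The difference between the sets had 0 calls (0.0116% of genes lower), 3 without the filter (0.175%), 2 with DESeq2 (0.385%), and 0 to 3 with 1 tissue left out (0% to 0.278%). The cause was not tested. Of the 5 genes of most similar pattern, 3 were shared with Spearman correlation and 0 with the correlation over 8 changes. The tissue block pairs the fed and fasting library of each tissue, and the labels give no replicate numbers beyond it.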

Other observations

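An unprocessed pseudogene named AC123853.3, singled out after its values were seen, shares 120 of the 31-base words of Scd1 (2.46%). It had 353 counts in fed and 4 counts in fasting liver, and 184 and 1 counts in lung. In white adipose tissue it had 1201 and 1040 counts and in brown adipose tissue 3036 and 2917. In muscle and heart it had 0 counts in each library. Whether these are reads of Scd1 was not tested.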
